A study of Saccharomyces cerevisiae with 27 samples.

Results

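Ribonucleotide reductase makes the deoxynucleotides that DNA is built from, and in budding yeast a kinase pathway that answers DNA damage and stalled replication controls how much of the enzyme is made and how active it is. The genes described here are 10 members of that system in Saccharomyces cerevisiae: the large subunit genes RNR1 and RNR3, the small subunit genes RNR2 and RNR4, the inhibitor genes SML1 and HUG1, the kinase genes MEC1, RAD53 and DUN1, and the repressor gene RFX1. They were found on the arrays by gene name or systematic name. All 10 were found among 6388 systematic names, each with 1 spot per array, and 9 of them were among the 5865 genes tested. RNR1 was not tested, because its spot had been marked for exclusion on 14 of 27 arrays.

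The study compared the RNA of old and young mother cells of a W303 wild type strain, labelled as mating type a and grown in log phase. Per the labels' protocols, magnetic beads from Miltenyi were used to sort the cells, and the RNA was amplified with T7 polymerase before dye coupling. Each of 27 spotted two-colour arrays carried RNA from cells of a given age in 1 channel and from young cells of 1 generation in the other. There were 7 arrays on which both channels held cells of 1 generation, 6 with cells of 8 generations, 7 with cells of 12 generations and 7 with cells of 18-20 generations, and the dyes were inverted on 1, 4, 3 and 3 of them. No treatment, deletion or transgene is named for any group. The labels do not say which arrays came from separate cultures, so each p-value rests on the spread between arrays, which may in part be technical.

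In textbook terms, the active enzyme pairs a large subunit, where the reaction takes place, with a small subunit that supplies a radical. The protein Sml1 holds the large subunit inactive until the kinases Mec1, Rad53 and Dun1 act in sequence and mark it for destruction. The same kinases release the repressor Rfx1, also called Crt1, from the promoters of RNR2, RNR3, RNR4 and HUG1, while RNR1 is switched on mainly as cells enter S phase.

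Values are log2 ratios of aged over young cells, so 0 means equal signal and 1 means a doubling in aged cells. A gene was called changed where limma's adjusted p, over all 5865 genes, was below 0.05. For each gene limma used 1 estimate of the spread, shared by all ages. Every tested member spread more between arrays at 18-20 than at 1 generation (for DUN1, SD 0.762 and 0.124). The SE and p given at 18-20 generations can thus be too small, and those at 1 generation too large. Per array, 174 to 1157 of 6580 spots were marked, and the share of spots above background was 61.3% to 96.0% for the red dye and 82.8% to 97.0% for the green dye. Array 1 of 8 generations correlated at -0.64, -0.58 and -0.11 with arrays 2, 3 and 6, the other arrays labelled with the same dye orientation. The direction of array 1 is thus not settled, and estimates at 8 generations are given as labelled and with that array turned. For array 3 of 8 generations the title and description disagree on dye inversion, and the title was followed. As labelled, array 3 correlated at 0.82 with array 2. At 18-20 generations, arrays 1 to 4 resembled each other closely (r from 0.93 to 0.97 over all genes) and arrays 5 to 7 formed another set (r from 0.76 to 0.87). In the 6 arrays of 8 generations and array 7 of 18-20 generations the spots also had another pattern of brightness than in the other 20 arrays. These sets come from the data and no label names them as batches, and the fits that leave a set out were chosen after the data were seen.

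None of the 9 tested members was called at 1 generation, where 0% of all genes were called by limma. There, 0 members and 13 of all genes had an unadjusted p below 0.05, and the members' estimates ran from -0.14 to 0.09. At 8 generations 0 members and 0% of all genes were called, with 1 member (HUG1) and 748 genes at an unadjusted p below 0.05. At 12 generations 4 of 9 members were called, 3 up (HUG1, MEC1 and DUN1) and 1 down (RAD53), against 44.8% of all genes (23.3% up and 21.5% down). At 18-20 generations 5 of 9 were called, all of them up (RNR4, MEC1, DUN1, SML1 and HUG1), against 64.2% of all genes (32.9% up and 31.2% down). The members' shares called lay near those of all genes, so the counts do not set the group apart. Their median change was 0.06 at 12 and 0.44 at 18-20 generations, beside medians of 0.02 and 0.01 over all genes.

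**Figure D1:**
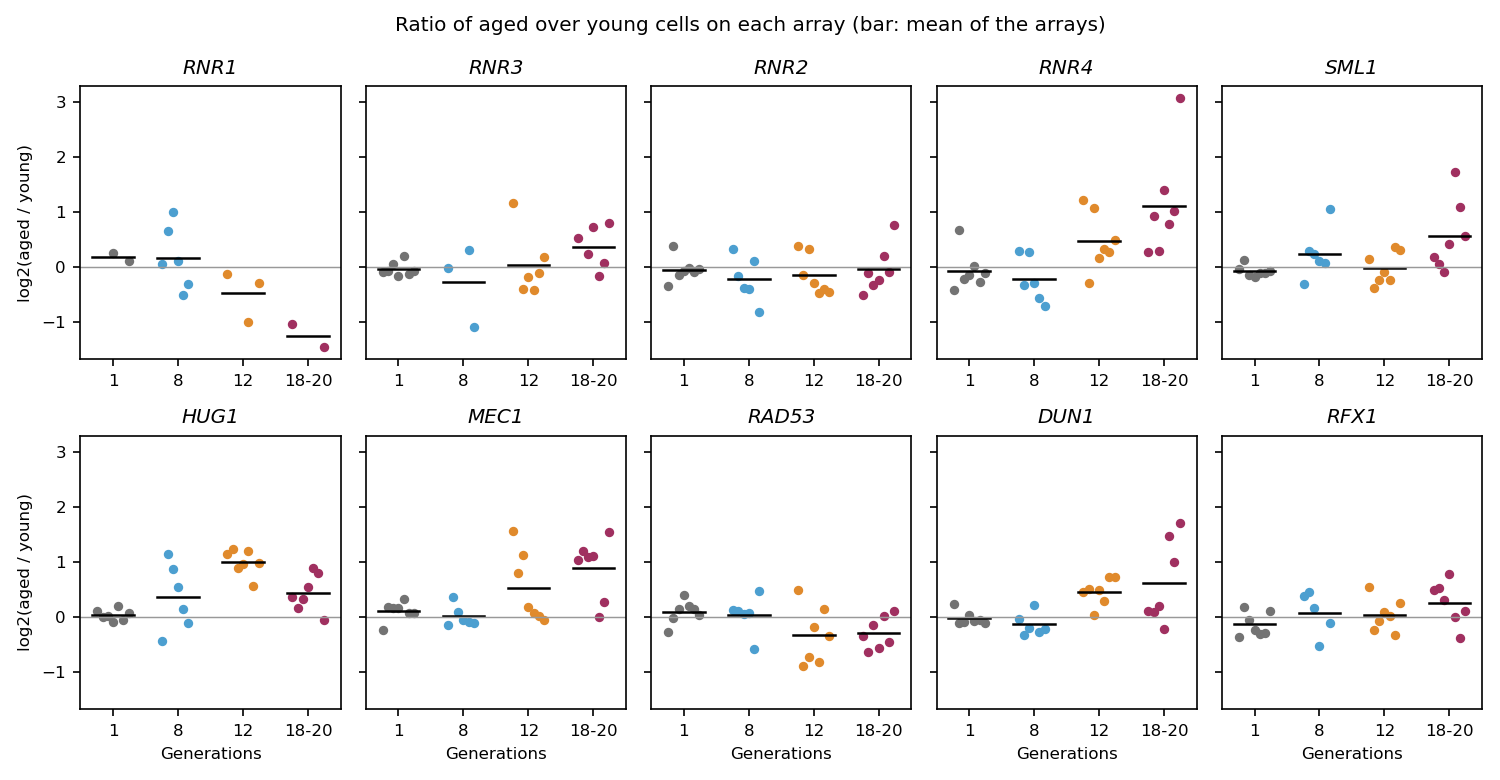
Log2 ratio of aged over young cells (vertical axis) on each array for the 10 genes, by age in generations (horizontal axis). Points are arrays in the order of their numbers and black bars are the mean of the arrays shown. HUG1 lies between 0.56 and 1.25 on all 7 arrays of 12 generations, and RNR4 lies above 0 on all 7 arrays of 18-20 generations with 1 array at 3.07.

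RNR1 encodes the main large subunit, which carries the active site. Its spot was unmarked on all 6 arrays of 8 generations but on 2, 3 and 2 arrays at 1, 12 and 18-20 generations. Its log2 ratios were 0.26 and 0.12 at 1 generation. At 8 generations they were 0.06, 0.67, 1.00, 0.11, -0.50 and -0.31 on arrays 1 to 6, on both sides of 0. At 12 generations they were -0.11, -0.99 and -0.28, and at 18-20 generations they were -1.04 and -1.45, so every unmarked spot of the older ages was below 0. Of these 5 spots, 2 were above background in both channels, array 1 of 12 generations (-0.11) and array 7 of 18-20 generations (-1.45). Few arrays stand behind these values, so they are given with no test against young cells. On the marked arrays the spot's signal was close to its local background, between 0.99 and 1.25 times it in either channel.

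RNR3 encodes the second large subunit, a form that is scarce in undisturbed cells and induced by DNA damage. Its spot was dim, with signal over background in each channel of only 9 of 22 usable arrays. The ratios at 18-20 generations were 0.54, 0.24, 0.74, -0.16, 0.07 and 0.81 on arrays 1, 3, 4, 5, 6 and 7, above 0 on 5 of 6 arrays. The estimate there was 0.32 ± 0.177 (SE), a 1.25-fold ratio that did not pass the test (adjusted p = 0.115). It passed without array 1 of 12 generations (0.35, adjusted p = 0.0480) or array 5 of 18-20 generations (0.45, adjusted p = 0.0377). At 12 generations the ratios were 1.17, -0.40, -0.17, -0.42, -0.10 and 0.20, with array 1 alone clearly high, and the estimate was 0.05 ± 0.174 (adjusted p = 0.853). RNR1 and RNR3 were both above background in each channel on 1 array of 12 and 1 of 18-20 generations, too few to compare the large subunits with each other.

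RNR2 encodes the small subunit that holds the iron centre, and its spot exceeded background in each channel of all 27 arrays. At 18-20 generations its ratios were -0.50, -0.11, -0.32, -0.23, 0.20, -0.08 and 0.77 on arrays 1 to 7, around 0 with array 7 the highest. The estimate was -0.04 ± 0.140 (SE; adjusted p = 0.822), which puts no call on either side. At 12 generations the ratios were 0.39, -0.13, 0.34, -0.29, -0.46, -0.39 and -0.44, and the estimate was -0.14 ± 0.140 (adjusted p = 0.428). Arrays 1 and 3 were above 0 and the other 5 below.

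RNR4 encodes the other small subunit, which lacks iron ligands of its own and is needed to fold and load Rnr2. Its estimate at 18-20 generations was the largest of the 9 tested members, though without array 7 it equalled that of MEC1 to 2 decimals. The ratios there were 0.29, 0.94, 0.29, 1.41, 0.80, 1.02 and 3.07 on arrays 1 to 7, above 0 on every array. RNR4 rose by 1.14 ± 0.217 (SE), or 2.20-fold (limma adjusted p = 4.605e-05, 7 of 7 arrays higher). Array 7 stood apart, and 37% of that spot's pixels were saturated in the aged channel and 0% in the young channel. In the authors' deposited table the ratio for the same array was 0.82, inside the range of the other 6 arrays, and a fit of that table gave 0.86 ± 0.152 (limma adjusted p = 1.695e-05). Without array 7 the rise was 0.79 ± 0.152 (adjusted p = 5.945e-05). RNR4 also passed the test with either array set left out. It was at 0.73 ± 0.190 (adjusted p = 0.00152) with arrays 5 to 7 left out and at 1.67 ± 0.316 (adjusted p = 0.000129) with arrays 1 to 4 left out. The latter value includes array 7 at 3.07, beside 0.80 and 1.02 on arrays 5 and 6.

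At 12 generations RNR4 ratios were 1.22, -0.29, 1.08, 0.17, 0.34, 0.28 and 0.51, above 0 on 6 of 7 arrays. The estimate of 0.49 ± 0.217 (SE) did not pass the test (adjusted p = 0.0644). Without array 7 of 18-20 generations, which widens the spread that all ages share, the estimate at 12 generations was 0.51 ± 0.141 with an adjusted p of 0.00417. At 8 generations the ratios of RNR4 were 0.29, -0.32, 0.29, -0.29, -0.56 and -0.71, and the estimate was -0.26 ± 0.237 as labelled (adjusted p = 0.698) and -0.31 ± 0.231 with array 1 turned. The young against young arrays gave -0.41 and 0.69 on arrays 1 and 2 and between -0.26 and 0.02 on the other 5. Among them only array 2 had inverted dyes. The rise from 1 to 18-20 generations, tested as a difference, was 1.09 ± 0.314 (adjusted p = 0.00482), beside 51.7% of all genes called in that comparison.

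The ratios of the small subunits moved together from array to array. With each age's mean removed, RNR2 and RNR4 correlated at r = 0.74 across 27 arrays, the highest of the 36 pairs among the tested members. This is a description: each array's ratios share the same RNA, labelling and normalization. RNR4 lay above RNR2 on 7 of 7 arrays of 18-20 generations, with RNR2 minus RNR4 between -2.31 and -0.59 and a mean difference of -1.15 ± 0.622 (SD, n = 7). An exact two-sided sign-flip test gave p = 0.0156, the smallest that 7 arrays allow, and an adjusted p of 0.0938 over the 12 pair tests. The test takes the arrays as independent. Averaging alike arrays of an age left 3 at 18-20 and 5 at 12 generations, so the exact p at these ages can be too small. With 3 arrays the smallest possible p is 0.25. At 12 generations the difference was -0.62 ± 0.371 (SD, n = 7; exact p = 0.0312, adjusted p = 0.125), with 6 of 7 arrays on that side. The difference was 0.02 ± 0.152 (SD, n = 7) at 1 generation and 0.00 ± 0.431 (SD, n = 6) at 8 generations. None of the 12 pair tests passed after adjustment. The 12 include RNR1 minus RNR3 at each age, on 2 or 3 arrays, where the smallest possible p was 0.5 or 0.25. Those could not pass, and the others had little room to, so this outcome does not decide whether pairs moved unequally.

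**Figure D2:**
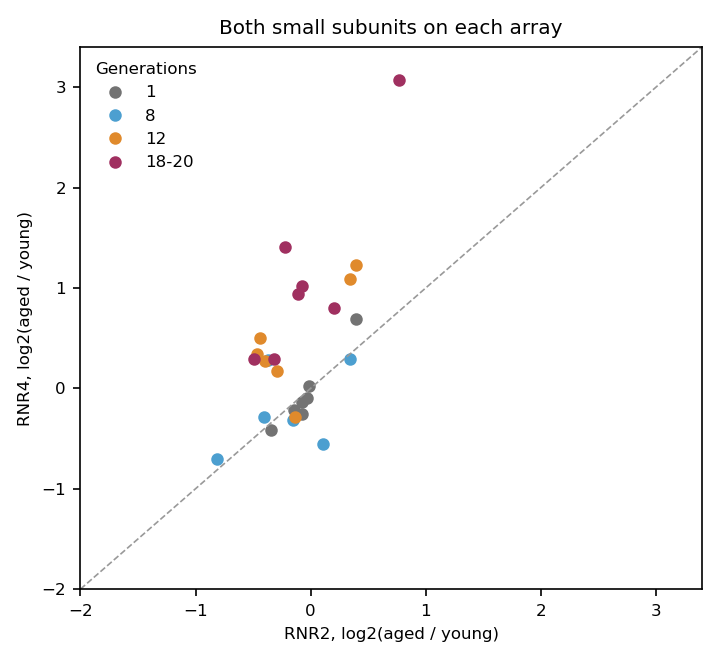
Log2 ratio of aged over young cells for RNR2 (horizontal axis) and RNR4 (vertical axis), with 1 point per array coloured by age in generations and a dashed line where both are equal. All 7 arrays of 18-20 generations lie above the line, while the 7 arrays of 1 generation lie close to it.

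SML1 encodes the small protein that binds and inhibits the large subunit. At 18-20 generations its ratios were 0.19, 0.06, -0.08, 0.43, 1.74, 1.09 and 0.57 on arrays 1 to 7. Arrays 5 to 7 were all above arrays 1 to 4, with means of 1.14 and 0.15. SML1 rose by 0.58 ± 0.159 (SE), or 1.49-fold (adjusted p = 0.00239, 6 of 7 arrays higher).

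That call rests on the second array set. With arrays 5 to 7 left out SML1 was at 0.15 ± 0.154 (adjusted p = 0.398), and with arrays 1 to 4 left out it was at 1.15 ± 0.207 (adjusted p = 7.726e-05). On array 7, 60% of the spot's pixels were saturated in the aged channel and 8% in the young channel. At 12 generations SML1 ratios ran from -0.37 to 0.37 around an estimate of -0.01 ± 0.159 (adjusted p = 0.977). At 8 generations they were -0.30, 0.29, 0.24, 0.12, 0.07 and 1.05, and the estimate was 0.24 ± 0.173 (adjusted p = 0.605), or 0.35 ± 0.163 with array 1 turned. The difference between 18-20 and 1 generation was 0.63 ± 0.229 (adjusted p = 0.0235), and without array 5 of 18-20 generations it was 0.39 with an adjusted p of 0.0982.

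HUG1 encodes a small protein that is strongly induced by DNA damage and binds the small subunit. It lies beside SML1 on chromosome XIII in the RefSeq gene order. At 12 generations its ratios were 1.16, 1.25, 0.90, 0.97, 1.21, 0.56 and 0.99 on arrays 1 to 7, all clearly above 0. HUG1 rose by 1.01 ± 0.138 (SE), or 2.01-fold (adjusted p = 1.493e-06, 7 of 7 arrays higher), the largest change of the 9 tested members at that age. The lowest ratio at 12 generations, 0.56, was above the highest at 1 generation, 0.20. The share of all genes with such a gap was not counted, so the gap does not set HUG1 apart. The difference from 1 generation was 0.95 ± 0.200 (adjusted p = 0.000858), and HUG1 was the 1 member of 9 called there, beside 27.3% of all genes.

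At 18-20 generations HUG1 ratios were 0.37, 0.17, 0.33, 0.56, 0.89, 0.80 and -0.05, below most arrays of 12 generations. The rise over young cells was 0.44 ± 0.138 (adjusted p = 0.00663, 6 of 7 arrays higher). With alike arrays averaged the estimate was 0.38 and the adjusted p was 0.166. Between 12 and 18-20 generations HUG1 fell by 0.57 ± 0.195 on the log2 scale (adjusted p = 0.0399), the 1 member called in that comparison, beside 19.7% of all genes. This call was lost when any 1 of 11 arrays was left out (6 of 12 and 5 of 18-20 generations), with an adjusted p of up to 0.089, and over all 27 such fits the difference stayed between -0.65 and -0.49. At 8 generations the ratios were -0.44, 1.15, 0.87, 0.54, 0.14 and -0.10. The estimate was 0.35 ± 0.151 as labelled (adjusted p = 0.309), 0.51 ± 0.130 with array 1 turned (adjusted p = 0.0157) and 0.51 ± 0.146 with array 1 left out (adjusted p = 0.0359).

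The neighbours SML1 and HUG1 differed on 7 of 7 arrays of 12 generations, where SML1 minus HUG1 was -1.01 ± 0.475 (SD, n = 7; exact two-sided p = 0.0156, the smallest possible, adjusted p = 0.0938). At 18-20 generations the difference was 0.14 ± 0.464 (SD, n = 7; exact p = 0.469). These exact tests also take the arrays as independent. Averaging alike arrays left 5 at 12 and 3 at 18-20 generations, so their p can be too small. Whether either spot also binds RNA of the neighbouring gene was not tested.

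MEC1 encodes the kinase at the top of the pathway, of the ATR family. At 18-20 generations its ratios were 1.03, 1.21, 1.09, 1.12, 0.01, 0.27 and 1.54 on arrays 1 to 7, with arrays 5 and 6 near 0 and the other 5 above 1. MEC1 rose by 0.89 ± 0.168 (SE), or 1.86-fold (adjusted p = 3.82e-05, 7 of 7 arrays higher). At 12 generations its ratios were 1.58, 0.80, 1.13, 0.19, 0.07, 0.03 and -0.05. Arrays 1 to 3 were high and arrays 4 to 7 near 0, and the estimate was 0.53 ± 0.168 (adjusted p = 0.0109).

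At the older ages MEC1's spot was dim on the arrays with ratios near 0. On arrays 4 to 7 of 12 generations and arrays 5 and 6 of 18-20 generations, the aged channel was between 1.22 and 3.23 times background, while on the other 8 arrays of these ages it was between 6.84 and 30.5 times. At 8 generations the ratios were also near 0, between -0.15 and 0.37, on spots at 7.54 to 29.9 times background. The part of this in the ratios was not tested. With arrays 1 to 4 of 18-20 generations left out, MEC1 was at 0.59 ± 0.264 (adjusted p = 0.0657), and with arrays 5 to 7 left out at 1.11 ± 0.188 (adjusted p = 1.304e-05). The call at 12 generations was lost without array 1 (0.36, adjusted p = 0.0713) or array 3 (0.41, adjusted p = 0.0599) of that age.

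RAD53 encodes the effector kinase, of the CHK2 family, that Mec1 activates. It was the 1 member called lower. At 12 generations its ratios were 0.49, -0.88, -0.73, -0.17, -0.81, 0.14 and -0.34, below 0 on 5 of 7 arrays. RAD53 fell by 0.34 ± 0.136 (SE) on the log2 scale, a ratio of 0.79-fold (adjusted p = 0.0400). The call was lost under 11 of 20 other settings and when any 1 of 5 arrays of 12 generations was left out, with an adjusted p of up to 0.383. At 18-20 generations its ratios were -0.35, -0.63, -0.14, -0.56, 0.03, -0.44 and 0.11, again below 0 on 5 of 7 arrays, and the estimate was -0.30 ± 0.136 (adjusted p = 0.0551), which passed when any 1 of 6 arrays was left out.

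DUN1 encodes the kinase downstream of Rad53 that acts on Sml1 and Rfx1. At 12 generations its ratios were 0.47, 0.51, 0.05, 0.50, 0.29, 0.72 and 0.73, above 0 on every array. DUN1 rose by 0.45 ± 0.152 (SE), or 1.36-fold (adjusted p = 0.0179). At 18-20 generations the ratios were 0.12, 0.09, 0.21, -0.22, 1.48, 1.00 and 1.71. Arrays 5 to 7 (mean 1.40) stood well above arrays 1 to 4 (mean 0.05), without overlap.

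Over all 7 arrays of 18-20 generations DUN1 rose by 0.61 ± 0.152, or 1.52-fold (adjusted p = 0.000995, 6 of 7 arrays higher). With arrays 5 to 7 left out it was at 0.05 ± 0.115 (adjusted p = 0.720), and with arrays 1 to 4 left out at 1.36 ± 0.144 (adjusted p = 9.618e-08). The difference between 18-20 and 1 generation was 0.73 ± 0.220 (adjusted p = 0.00657). The call at 12 generations was lost without array 7 of that age (0.36, adjusted p = 0.0777). The difference between 12 and 1 generation, 0.57 ± 0.220, did not pass (adjusted p = 0.0529), though it passed when any 1 of 7 arrays was left out.

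RFX1 encodes the DNA-binding repressor of the damage-induced RNR genes. At 18-20 generations its ratios were 0.49, 0.53, 0.31, 0.78, 0.01, -0.37 and 0.11, with arrays 1 to 4 (mean 0.53) all above arrays 5 to 7 (mean -0.08). The estimate was 0.28 ± 0.125 (SE; adjusted p = 0.0507), with 6 of 7 arrays above 0. It was 0.53 ± 0.143 (adjusted p = 0.00225) with arrays 5 to 7 left out and -0.05 ± 0.184 (adjusted p = 0.817) with arrays 1 to 4 left out. It also passed the test when any 1 of 5 arrays was left out, at 0.43 (adjusted p = 0.00322) without array 6. At 12 generations the ratios ran from -0.32 to 0.56 and the estimate was 0.06 ± 0.125 (adjusted p = 0.739).

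**Figure D3:**
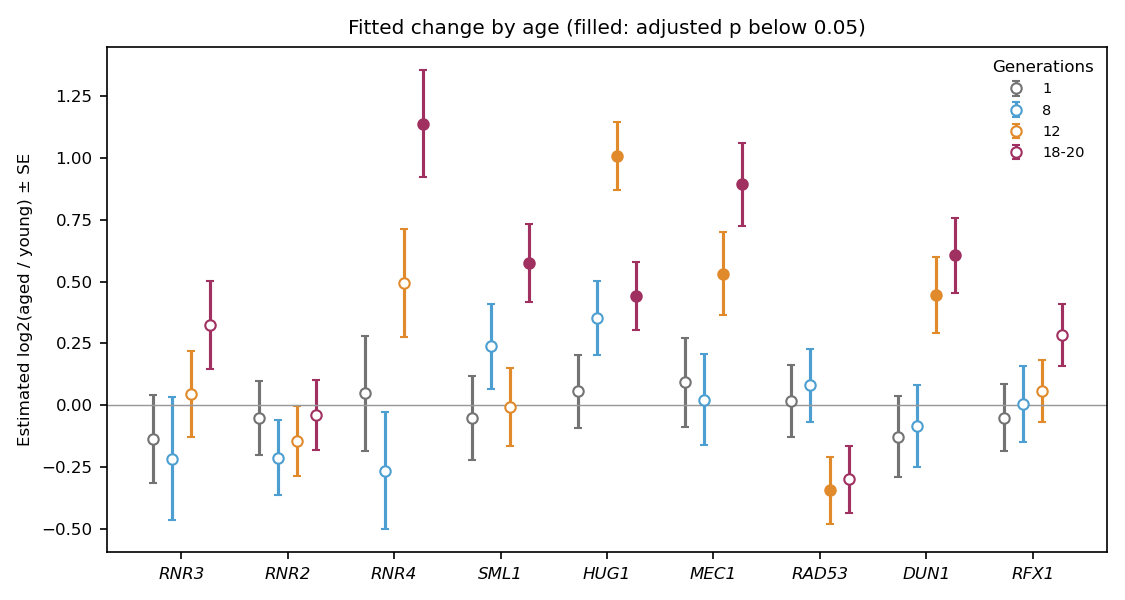
Estimated log2 ratio of aged over young cells (vertical axis, bars are ± 1 SE of the limma estimate) for the 9 tested genes at each age in generations (colours), filled where the adjusted p was below 0.05. HUG1 is highest at 12 generations, at 1.01, and RNR4, MEC1, DUN1 and SML1 are highest at 18-20 generations.

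The first place in the order of the estimates at 18-20 generations is not settled: without array 7 RNR4 and MEC1 were both at 0.79, and in a fit of the authors' deposited table RNR4, at 0.86, was below MEC1, at 0.97. In the order as fitted, RNR4 (1.14) came first, followed by MEC1 (0.89), DUN1 (0.61), SML1 (0.58), HUG1 (0.44), RNR3 (0.32), RFX1 (0.28), RNR2 (-0.04) and RAD53 (-0.30). No neighbours in this order differed by 2 standard errors of their gap, the widest being 0.32 ± 0.188 (SE) between RFX1 and RNR2. These standard errors take the 2 genes as independent, though their ratios come from the same arrays, so they are approximate. A linear trend over all 4 ages, with 18-20 taken as 19, was called for 4 of 9 members, all upward, beside 54.6% of all genes. The log2 slopes per generation were 0.0683 ± 0.0181 for RNR4, 0.0492 ± 0.0133 for MEC1, 0.0455 ± 0.0120 for DUN1 and 0.0303 ± 0.0128 for SML1 (SE), with limma adjusted p of 0.00222, 0.00265, 0.00214 and 0.0457. SML1 had the smallest slope of the 4, and its call was lost when any 1 of 13 arrays was left out.

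Within an age the kinases and inhibitors did not all move together from array to array. After the age means were removed, DUN1 correlated at 0.54 with SML1 (n = 27 arrays) and at -0.54 with RFX1 (n = 26), and SML1 at -0.47 with MEC1 (n = 27). RNR3 correlated at 0.59 with RFX1 (n = 21) and at 0.57 with MEC1 (n = 22). At 18-20 generations DUN1 and SML1 were high on arrays 5 to 7 and RFX1 on arrays 1 to 4, and the part of this in the correlations was not tested. They are descriptions, since arrays that look alike may share their RNA.

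How far each spot stood above its background sets how well its ratio is measured. SML1, RNR2, RNR4 and DUN1 exceeded background in each channel of all 27 arrays, and HUG1 of 26. RAD53, MEC1 and RFX1 were so on 19, 18 and 16 arrays, RNR3 on 9 of 22 unmarked arrays and RNR1 on 9 of 13, of which 7 were of 1 or 8 generations. For HUG1 at 12 generations the signal over background had a median of 7.11 in aged and 4.69 in young cells.

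**Figure D4:**
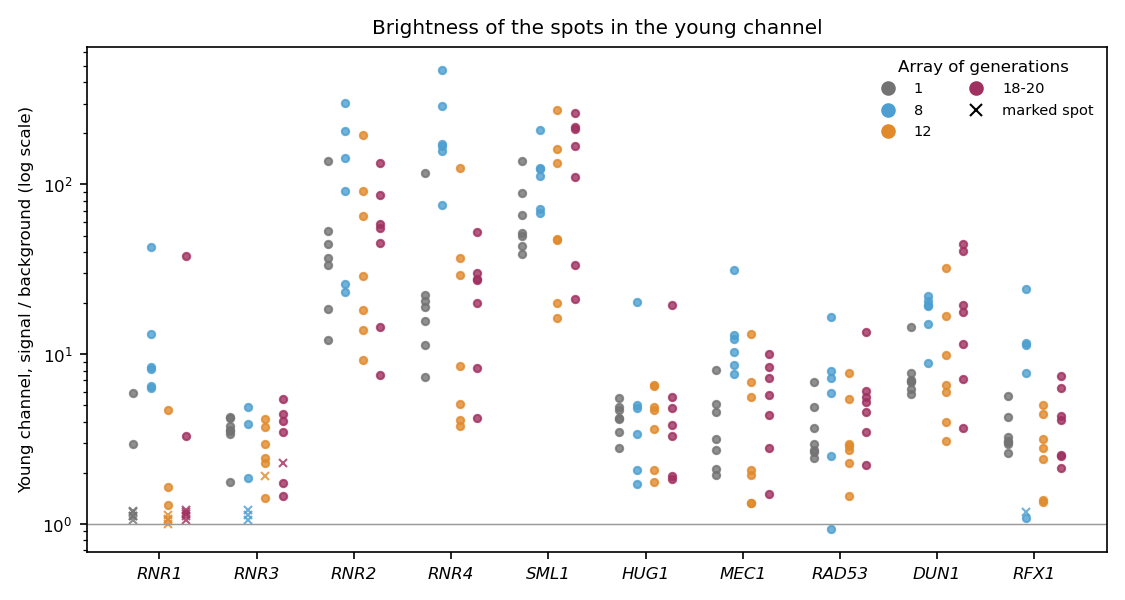
Signal over local background in the young channel (vertical axis, log scale) for each gene's spot on each array, coloured by the age of the array's other channel, with crosses for marked spots. RNR1 spots sit near 1 on the marked arrays, and RNR3 spots reach 5.45 at most, while RNR2 spots are at 7.51 or above on every array. Different probes are not comparable in level.

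The genes with the ratios most like those of a member across all arrays were named by Pearson's r over at least 20 shared arrays, as a description. For RNR4 they were MSA2 (0.93, n = 21 arrays), HSP78 (0.87, n = 27) and YIL108W (0.87, n = 27). For HUG1 they were QRI5 (0.81, n = 27), POT1 (0.76, n = 23) and YLR349W (0.76, n = 21). For DUN1 they were HFD1 (0.89, n = 23), PDX3 (0.87, n = 27) and GSC2 (0.87, n = 27), and for MEC1 they were HBT1 (0.90, n = 27), YPR078C (0.89, n = 25) and SGA1 (0.88, n = 26).

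For SML1 the most alike genes were YIL014C-A (0.80), MIM1 (0.74) and GDH3 (0.72), each over 27 arrays. For RNR2 they were VMA1 (0.73), NUP60 (0.72) and SET1 (0.70), each over 27 arrays. RNR3 was most like CIM1 (0.85, n = 22), ESBP6 (0.85, n = 21) and DUR3 (0.84, n = 22). RAD53 was most like ALG12 (0.77, n = 26), CLG1 (0.77, n = 21) and PZF1 (0.75, n = 27), and RFX1 was most like SRC1 (0.79, n = 26), SOK1 (0.76, n = 26) and YMR317W (0.76, n = 23). No member was among the genes most like another member.

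Other genes of deoxynucleotide supply went the other way from RNR4. Of 8 enzymes that make or guard the precursors, 7 fell and 1 rose at 18-20 generations, with a median of -1.38. URA7, a CTP synthetase, fell by 2.27 ± 0.138 (SE) on the log2 scale (adjusted p = 2.991e-13). DUT1, the dUTPase that keeps uracil out of DNA, fell by 2.20 ± 0.154 (adjusted p = 2.464e-12). GUK1, guanylate kinase, fell by 1.88 ± 0.174, and DFR1, dihydrofolate reductase, fell by 1.70 ± 0.121. Each of these 4 genes was lower on 7 of 7 arrays. The 1 gene that rose, named after its value was seen, was YNK1, nucleoside diphosphate kinase, at 0.82 ± 0.230 (adjusted p = 0.00278). At 12 generations 5 of the 8 fell and 1 rose, with a median of -0.57.

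Of 10 other regulators and electron donors of the enzyme, 2 rose, 4 fell and 4 were not called at 18-20 generations, with a median of -0.23. TRX2, a thioredoxin, rose by 0.73 ± 0.194 (SE; adjusted p = 0.00168), and IXR1, a DNA-binding regulator of RNR1, rose by 0.70 ± 0.190 (adjusted p = 0.00202) with ratios from -0.29 to 1.57. TRX1, the other thioredoxin, fell by 1.13 ± 0.331 (adjusted p = 0.00645) on the 3 arrays with a usable spot. TRR1, thioredoxin reductase, fell by 0.66 ± 0.165 (adjusted p = 0.00097). TRX1 and TRX2 are close in sequence, and whether their spots bind each other's RNA was not tested.

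Of 12 checkpoint sensors and adaptors, 3 rose, 3 fell and 6 were not called at 18-20 generations, with a median of 0.10. RAD9, the adaptor that brings Rad53 to Mec1, fell by 0.97 ± 0.122 (SE; adjusted p = 8.332e-08, 7 of 7 arrays lower). TOF1, a replication fork protein, fell by 0.75 ± 0.134 (adjusted p = 2.079e-05). TEL1, the ATM family kinase, rose by 0.40 ± 0.110 (adjusted p = 0.00231), and RAD24, part of a checkpoint clamp loader, rose by 0.41 ± 0.127 (adjusted p = 0.00593).

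Of 7 checkpoint effectors and phosphatases, 1 rose and 4 fell, with a median of -0.44. PPH3, the catalytic subunit of a phosphatase that turns Rad53 off, fell by 1.25 ± 0.143 (SE; adjusted p = 2.258e-08), and PSY2, its regulatory subunit, fell by 0.55 ± 0.126 (adjusted p = 0.000403). CHK1, a parallel effector kinase, fell by 0.44 ± 0.122 (adjusted p = 0.00242), and ASF1, a histone chaperone, by 0.54 ± 0.0819 (adjusted p = 1.666e-06).

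Of 13 other genes known to be induced by DNA damage, 9 rose, 2 fell and 2 were not called at 18-20 generations, with a median of 0.58, and the counts at 12 generations were also 9 and 2, with a median of 0.43. UBI4, a polyubiquitin gene that also answers heat and starvation, rose by 2.17 ± 0.257 (SE; adjusted p = 3.184e-08). PHR1, DNA photolyase, rose by 1.36 ± 0.167 (adjusted p = 5.845e-08). RAD2 and RAD7, of nucleotide excision repair, rose by 1.21 ± 0.175 (adjusted p = 1.031e-06) and 0.98 ± 0.141 (adjusted p = 8.255e-07). All 4 were higher on 7 of 7 arrays. The 2 that fell, named after their values were seen, were PLM2 (-0.52 ± 0.127) and RAD23 (-0.33 ± 0.0847), each lower on 7 of 7 arrays. The list includes 2 probes that list several genes, and these are in the counts of genes that rose at both ages.

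**Figure D5:**
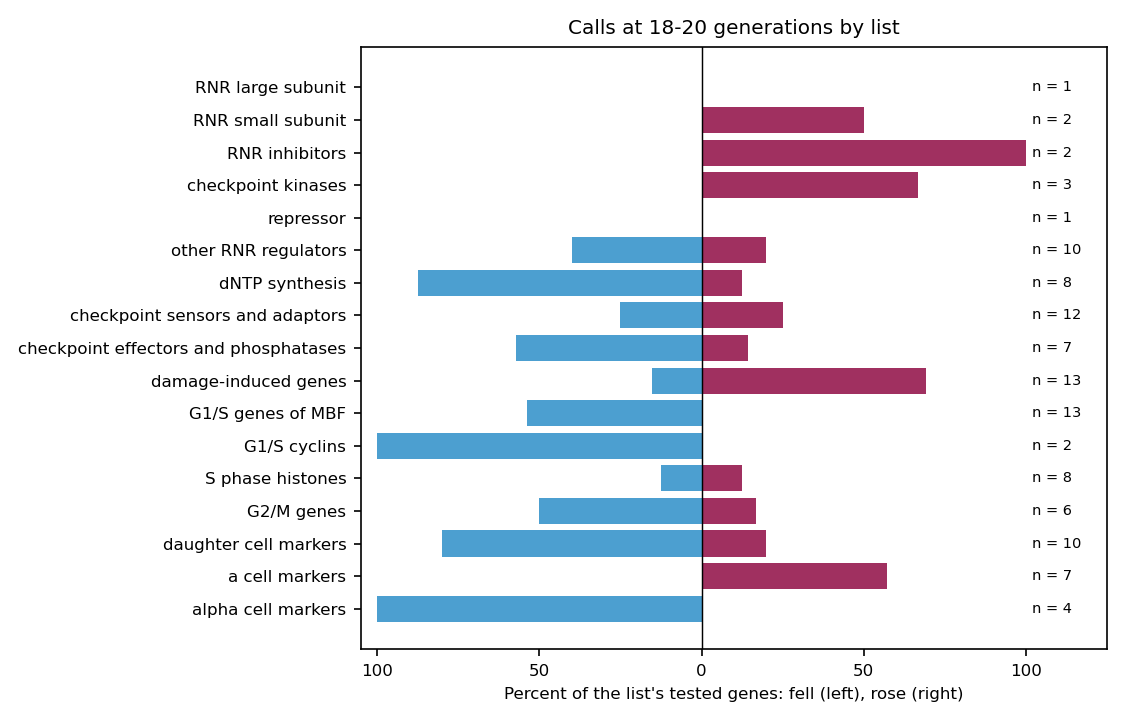
Percent of each list's tested genes that rose (right) or fell (left) at 18-20 generations by limma at an adjusted p below 0.05, with the number of tested genes at the right. Of all 5865 genes, 32.9% rose and 31.2% fell; 7 of 8 genes of deoxynucleotide synthesis fell and 9 of 13 damage-induced genes rose.

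Of 13 genes of the G1/S programme of the factor MBF, 7 fell, 0 rose and 6 were not called at 18-20 generations, with a median of -0.40, while at 12 generations 2 rose and 2 fell. Among them POL30, which encodes PCNA, fell by 0.75 ± 0.132 (SE; adjusted p = 1.536e-05), and RFA2, a subunit of the single-strand binding protein RPA, fell by 0.85 ± 0.126 (adjusted p = 1.258e-06). TOS4 fell by 0.89 ± 0.131 and POL1, DNA polymerase alpha, fell by 0.73 ± 0.143. Both tested G1/S cyclin genes fell, PCL1 by 0.92 ± 0.250 and CLN2 by 0.63 ± 0.169.

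Of 6 G2/M genes, 3 fell, with a median of -0.28. CLB1 fell by 1.49 ± 0.134 (SE; 7 of 7 arrays lower), CLB2 fell by 0.75 ± 0.114 and CDC5 fell by 0.33 ± 0.111, all cyclins or kinases of mitosis. Of 8 S phase histone genes, 1 rose, 1 fell and 6 were not called. The part of a shift in cell cycle stage in the members' ratios was not tested. In RNA from many cells, fewer cells in a stage and less RNA per cell cannot be told apart.

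Of 10 markers of daughter cells, 8 fell and 2 rose at 18-20 generations, with a median of -1.19, and 7 fell and 2 rose at 12 generations. DSE2 fell by 2.29 ± 0.179 (SE) and DSE4 fell by 2.15 ± 0.118, both named for daughter-specific expression, and SCW11 fell by 1.32 ± 0.135 and DSE1 fell by 1.26 ± 0.135. The 2 that rose, named after their values were seen, were DSE3 (0.79 ± 0.150) and ASH1 (0.66 ± 0.155). As a sum, the 10 spots held 0.0527% to 0.106% of the signal above background in aged cells of 18-20 generations and 0.114% to 0.160% in the young cells on the same arrays. At least 7 of the 10 markers were above background in the aged channel of every such array. The part of daughter cells in the members' ratios was not tested.

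The labels give the strain's mating type as a. The 4 genes that mark alpha cells were nevertheless all above background in both channels of every array of 1 generation and held 0.188% to 0.403% of the signal there, where 1 to 7 of the 7 a cell markers were above background and held 0.00171% to 0.0172%. At 18-20 generations all 4 alpha markers fell (median -1.83, STE3 fell by 1.78 ± 0.126 SE and MF(ALPHA)2 fell by 2.54 ± 0.199), and 4 of 7 a markers rose (median 0.38, MFA1 by 0.56 ± 0.149 and STE2 by 0.47 ± 0.107). The marker values thus do not match the labelled mating type. The label is reported as given, and the mating type is not used in any comparison. The part of these differences in the members' ratios was not tested.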

How the data were processed

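The scanner files hold median spot and background intensity in red (Cy5) and green (Cy3), the percent of pixels above background plus 2 SD, the percent saturated, and a mark for set-aside spots, per the file headers. A further deposited table holds the authors' log2 ratios, whose rows number spots by place on the slide (block, row, column). Its columns ran as aged over young, and 23 of 27 matched their own scanner file best. The columns of arrays 3 and 4 of 1 generation, and of arrays 1 and 3 of 8 generations, matched each other's file. The labels and headers do not say how the authors normalized or centred these values. Column medians lay between -0.0625 and 0.0984. Neither HUG1 nor RNR1 was analysed in that table.

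Intensities were background-corrected (normexp, offset 50) and normalized by loess (span 0.3) with limma 3.58.1 in R 4.3.3. Marked spots were left out, ratios were turned to aged over young, and spots of a gene were averaged. Genes with values on at least 3 arrays of each age were fitted over all 27 arrays with age and dye as terms, and p-values were adjusted by Benjamini-Hochberg over 5865 genes. "Above background" means that over 50% of a spot's pixels passed. The fit was also run on simulated data with independent arrays and 1 spread per gene for all ages. That setting lacks the alike arrays and the wider spread at 18-20 generations, so it cannot show whether p-values hold under these. Names came from the files and from RefSeq locus tags (5849 of 6388 names matched), and 322 probes listing several genes were not named. Of each other list, up to 4 called genes with the largest change at 18-20 generations are named. A result for 1 listed gene is not reported here. For each member, the 3 genes with the highest correlation over at least 20 arrays are named. The members and lists were chosen with earlier results of these data known. The number of arrays limits the precision. Alternatives covered background, normalization, filters, dye term, weights, doubted arrays and each array left out.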

Additional observations from a re-analysis of the deposited data

Results flagged for a closer look

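RNR4 on array 7 of 18-20 generations, at 3.07, stood apart from the other 6 arrays of that age, the next being 1.41. RNR4 on array 2 of 1 generation, at 0.69, stood apart from the other 6 arrays, of which the next was 0.02. Array 2 was the 1 array of that age with inverted dyes. At 18-20 generations RNR4 was at 0.94, 1.41 and 1.02 on the inverted arrays 2, 4 and 6. It was at 0.29, 0.29, 0.80 and 3.07 on arrays 1, 3, 5 and 7. The fit has a dye term, but the part of the dye in these array values was not tested. DUN1 on array 1 of 1 generation, at 0.24, stood apart from a next value of 0.04. These were 3 of 36 combinations of gene and age looked at, and chance alone sets apart about 1 in 20.

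The change over young cells differed between ages by a test of the difference itself for 5 members. HUG1 differed by 0.95 between 12 and 1 generation and by -0.57 between 18-20 and 12 generations. Between 18-20 and 1 generation, RNR4 differed by 1.09, MEC1 by 0.80, DUN1 by 0.73 and SML1 by 0.63.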

How the results depend on the processing

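No called result changed direction under any alternative that was run. RNR4 at 18-20 generations was called under 20 of 20 other settings (0.58 to 1.67), HUG1 at 12 generations under 19 of 19 (0.73 to 1.11), MEC1 at 18-20 under 19 of 20, DUN1 under 17 of 20 and SML1 under 16 of 20. The settings "array set block", both 18-20 array sets left out and arrays 1 and 3 of 8 generations left out were chosen after the data were seen. Causes of the moves below were not tested.

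At 8 generations 1 member was called with array weights, with array 1 turned or left out (HUG1 in each) and with the array set as a block (RNR4, at -2.17). That block joins all arrays of 8 generations with array 7 of 18-20 generations, where RNR4 was at 3.07. Under that setting the estimate of any gene at 8 generations is told from the block only through array 7, so the RNR4 call is not read as a change at 8 generations. At 12 generations 2 members were called under median centring, array weights and each age fitted alone. Between 12 and 1 generation 2 were called with arrays scaled to one spread, bright spots only, array weights, array 1 of 8 generations turned, the array set as a block and either 18-20 array set left out. Between 18-20 and 1 generation 2 were called with arrays scaled to one spread and 8 with array weights. Between 18-20 and 12 generations 0 were called without background correction, with normexp offset 10, median centring, arrays scaled to one spread, the replicate block, array 3 of 8 generations turned, the authors' value table, alike arrays averaged and the array set as a block, 2 with print-tip loess and array weights, and 3 with either 18-20 array set left out. The trend was called for 8 members with array weights. Leaving out each array in turn gave 0 to 1 members at 8 generations, 2 to 5 at 12, 5 to 8 at 18-20, 1 to 2 for 12 against 1, 4 to 5 for 18-20 against 1, 0 to 2 for 18-20 against 12, and 3 to 5 for the trend. In the main fit 51.7% of all genes were called for 18-20 against 1 and 54.6% for the trend. The share of all genes is not given beside each member count here, so these counts do not set the members apart.

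Over all genes, 8 generations gave 279 to 755 calls with array weights (755), array 1 turned, array 1 left out (392), the array set as a block (422) or arrays 1 and 3 left out (279), 26 without array 4 and at most 5 under print-tip loess, scaling or the replicate block, against 0. At 1 generation scaling gave 67 calls and the array set block 15, against 0. Arrays scaled to one spread gave 2408 calls at 18-20 generations, 1762 for 18-20 against 1, 9 for 18-20 against 12 and 2071 for the trend. Array weights gave 2532 for 12 against 1 and 2151 for 18-20 against 12, where averaging alike arrays gave 351 and leaving out arrays 5 to 7 of 18-20 generations 1766. Median centring moved the median of all genes between 12 and 1 generation to 0.12.

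The labels do not say that equal array numbers mark a shared source. With each age's mean removed, same-numbered arrays of different ages correlated at -0.28 to 0.23 in 39 pairs, 13 of them over 0.1. Arrays of other numbers and ages correlated at -0.38 to 0.45 in 234 pairs, 55 of them over 0.1. As no label pairs them, the numbers were not taken to pair arrays. With the replicate block 0 members were called at 1 and 8 generations, 3 at 12 and 6 at 18-20 generations, and 1, 4 and 0 in the differences between ages and 4 in the trend. These counts too stand without the share of all genes in that fit and do not set the members apart. The planned block on scan batch was not run, as the headers used here name none. Dim spots limit RNR1, RNR3, RFX1, MEC1 and RAD53 most.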
